A study of Ovis aries with 8 samples.

Results

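The 49 genes described here encode WNT ligands, their receptors and the secreted proteins that modulate them. They were chosen by symbol from the 28475 genes of the deposited table, and all 49 were listed. They comprise 19 WNT ligands, 10 Frizzled receptors, the co-receptors LRP5 and LRP6, and the alternative receptors RYK, ROR1 and ROR2. The rest are the R-spondin receptors LGR4, LGR5 and LGR6, the secretion factors PORCN and WLS, 5 secreted Frizzled-related genes (SFRP1, SFRP2, SFRP4, SFRP5 and FRZB), WIF1, and 4 Dickkopf genes.

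WNT proteins are lipid-modified by PORCN in the endoplasmic reticulum and carried to the cell surface by WLS. Binding of a ligand to a Frizzled and LRP5 or LRP6 stops the beta-catenin destruction complex. Tankyrase marks AXIN, the scaffold of that complex, for degradation, so tankyrase inhibitors stabilise the complex. ROR1, ROR2 and RYK receive ligands such as WNT5A for branches that do not use beta-catenin. SFRP proteins, FRZB and WIF1 bind ligands outside the cell, Dickkopf proteins bind LRP5 and LRP6, and R-spondins acting through LGR receptors keep Frizzleds on the surface.

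RNA sequencing of polyadenylated RNA was done on 8 libraries of sheep embryonic stem cells derived from blastocysts, in 4 groups of 2 libraries. Primed cells (genotype WT) of line A and of line B (passage 10) grew without feeders in NBFR medium, which holds Activin A at 20 ng/mL, bFGF at 20 ng/mL, the tankyrase inhibitor endo-IWR-1 at 3 µM and 1% BSA. Naive-like cells, converted from primed cells and at passage 12, grew without feeders or on mouse embryonic fibroblasts (MEFs) in a medium with LIF and Activin A (each 20 ng/mL), the MEK inhibitor PD0325901 (1 µM), the tankyrase inhibitor XAV-939 (2 µM), the protein kinase C inhibitor Go6983 (2 µM), the SRC inhibitor CGP77675 (1.2 µM) and ascorbic acid (50 µg/mL). All 8 libraries therefore came from cells under Activin A and a tankyrase inhibitor, with no WNT ligand named among the additives. State, medium and passage cannot be told apart, and the sources used here do not name the primed line behind the naive-like cells.

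Values are in TPM, a transcript abundance corrected for length and scaled to a library total of 1000000, so levels can be set side by side between genes; the read depth behind a value is unknown. Genes at 1 TPM or more in at least 2 libraries were tested, 14779 in all, on log2(TPM + 1) with limma, and a gene is said to have risen or fallen where the Benjamini-Hochberg adjusted p was under 0.05. Fold changes on that scale understate those of genes with low TPM. Between libraries of a group, log2(TPM + 1) correlated at 0.982 to 0.985 across genes, which are not independent replicates. No label states that libraries of 1 group were separate cultures, so p-values measure the spread between these libraries, which may be technical. As a check of the labelled cell type, POU5F1 stood at 609.7 to 662 TPM in primed and 1532 to 1706 TPM in naive-like libraries, and SOX2 at 290.2 to 324 and 293 to 323 TPM. NANOG was at 9.12 to 16.4 and 83.0 to 136 TPM, and LIN28A at 1351 to 1391 and 937.5 to 1244 TPM. Of 8 pluripotency markers, 5 rose, 1 fell and 2 did not pass in naive-like against primed libraries, beside 28.6% of all tested genes rising and 22.1% falling. In bulk RNA, fewer cells of a type and less RNA per cell cannot be told apart.

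Of the 49 genes, 32 were tested and 17 were too low in these cells. Receptors and antagonists made up most of the signal. SFRP1, with 279.8 to 452 TPM in single libraries, was the highest member in all 8, and 3 members (SFRP1, SFRP2 and FZD7) averaged 100 TPM or more over all libraries. The ligands were low: their 19 values summed to 17.0 to 20.4 TPM in primed and 15.8 to 18.0 TPM in naive-like libraries, against 344 to 401 and 408 to 432 TPM for the 10 Frizzleds.

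**Figure D1:**
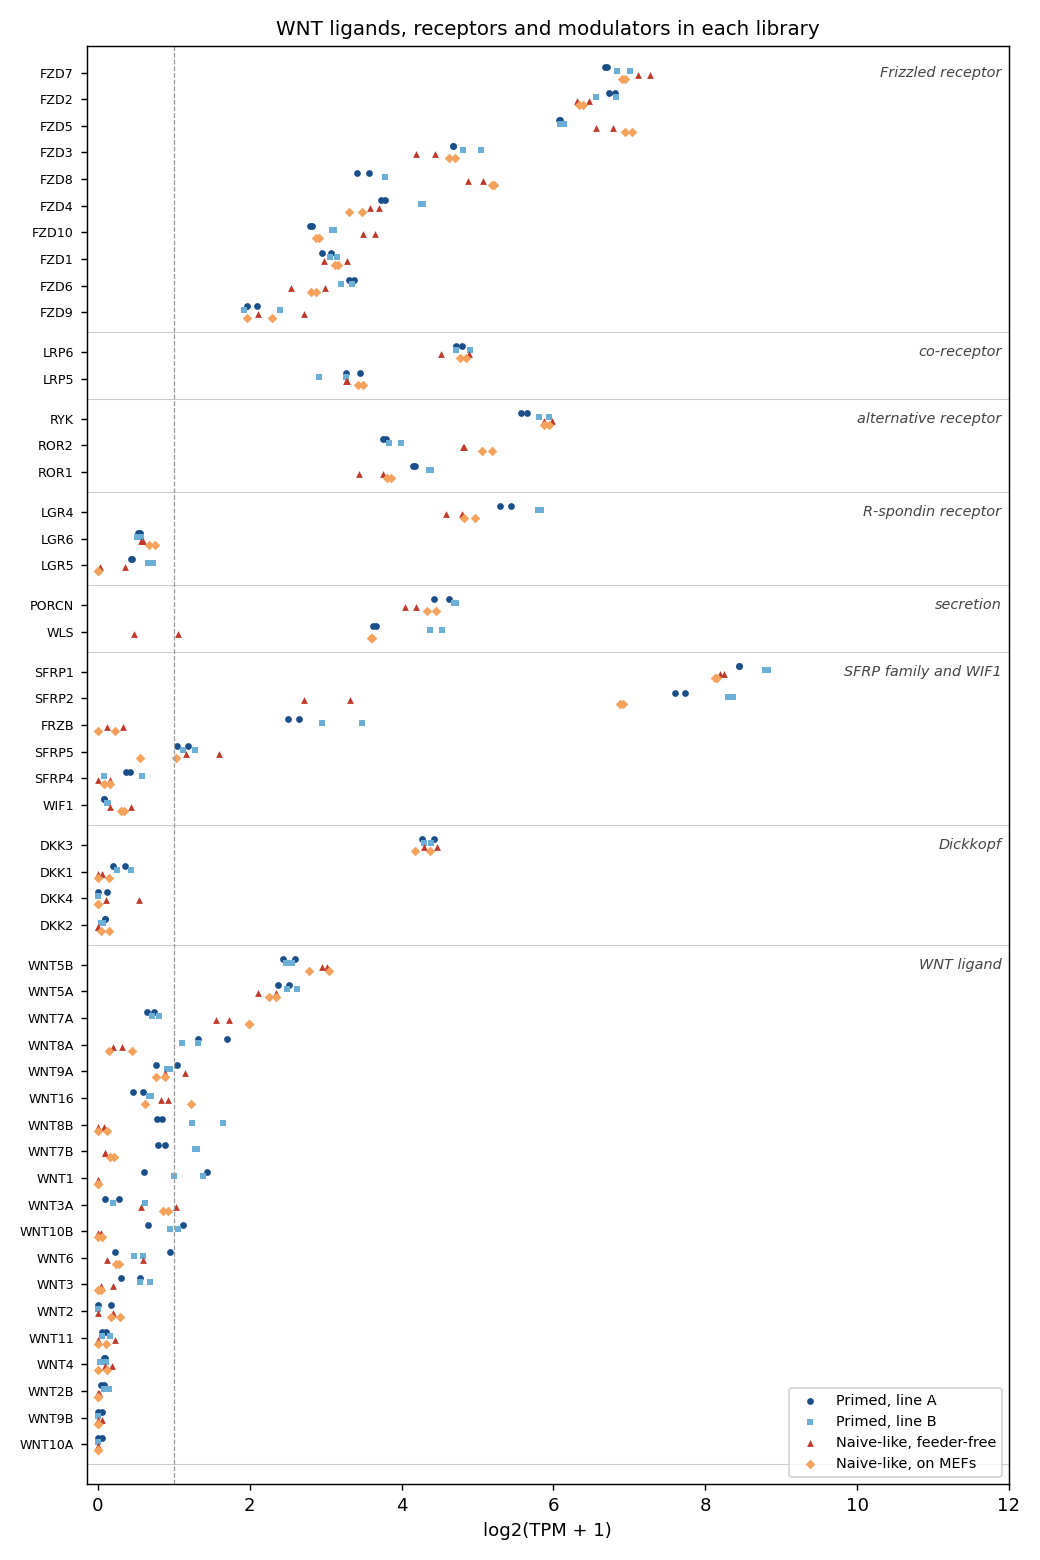
Level of each of the 49 genes in each library as log2(TPM + 1) on the horizontal axis, ordered by role and then by mean level, with 1 mark per library and the dashed line at 1 TPM. All 10 Frizzleds lie right of the line in all libraries, most ligands lie at or left of it, and SFRP2 and WLS are far lower in the 2 feeder-free naive-like libraries (red triangles) than in the other 6.

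For state, 4 naive-like against 4 primed libraries, 14 of the 32 tested members fell, 5 rose and 13 did not pass, beside 22.1% of all tested genes that fell, 28.6% that rose and 50.7% that passed in either direction. The share of members that passed, 59.4%, was near that background. On the log2(TPM + 1) scale, which leaves out low genes with larger TPM folds, 5 falls and 3 rises were at least 2-fold, beside 10.8% of all genes past that size in either direction. The 4 primed and 4 naive-like libraries did not overlap in 20 of the 32, beside 47.7% of all genes. The median log2 difference was −0.28 over the 32 members and 0.05 over all tested genes. Feeder-free naive-like cells against the 4 primed libraries, with MEFs in neither arm, gave 16 falls, 8 rises and 8 members that did not pass, against 25.6%, 30.8% and 56.4% of all genes falling, rising and passing. There 7 members changed at least 2-fold on the log2(TPM + 1) scale, beside 12.1% of all genes, and 24 did not overlap, beside 59.8%. A member that is high in 1 state alone can enter the tests only because it is high there. The 2-fold and non-overlap counts and the median over the 32 members include such members, so nothing is read from those counts or that median. For state FRZB, WNT1, WNT7A, WNT8A and WNT8B were among the members past 2-fold, and in the feeder-free comparison all of these but WNT7A. Of the 32, 6 members reached 1 TPM in 2 primed libraries but not in 2 naive-like ones, 1 the reverse, and 24 reached it in 2 libraries of each. Among those 24, 8 fell and 4 rose for state, where the same filter left 12943 genes, 20.6% of which fell, 29.0% rose and 49.6% passed. In the feeder-free comparison 10 of the 24 fell and 7 rose, beside 24.2%, 31.6% and 55.7% of those genes falling, rising and passing. The 2 comparisons share the primed libraries and are not independent. For state the error takes in differences between lines and between feeder conditions. In the feeder-free comparison it is the spread within groups alone, so those p-values leave out the difference between the primed lines. The numbers of calls in the 2 comparisons therefore rest on unlike errors.

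**Figure D2:**
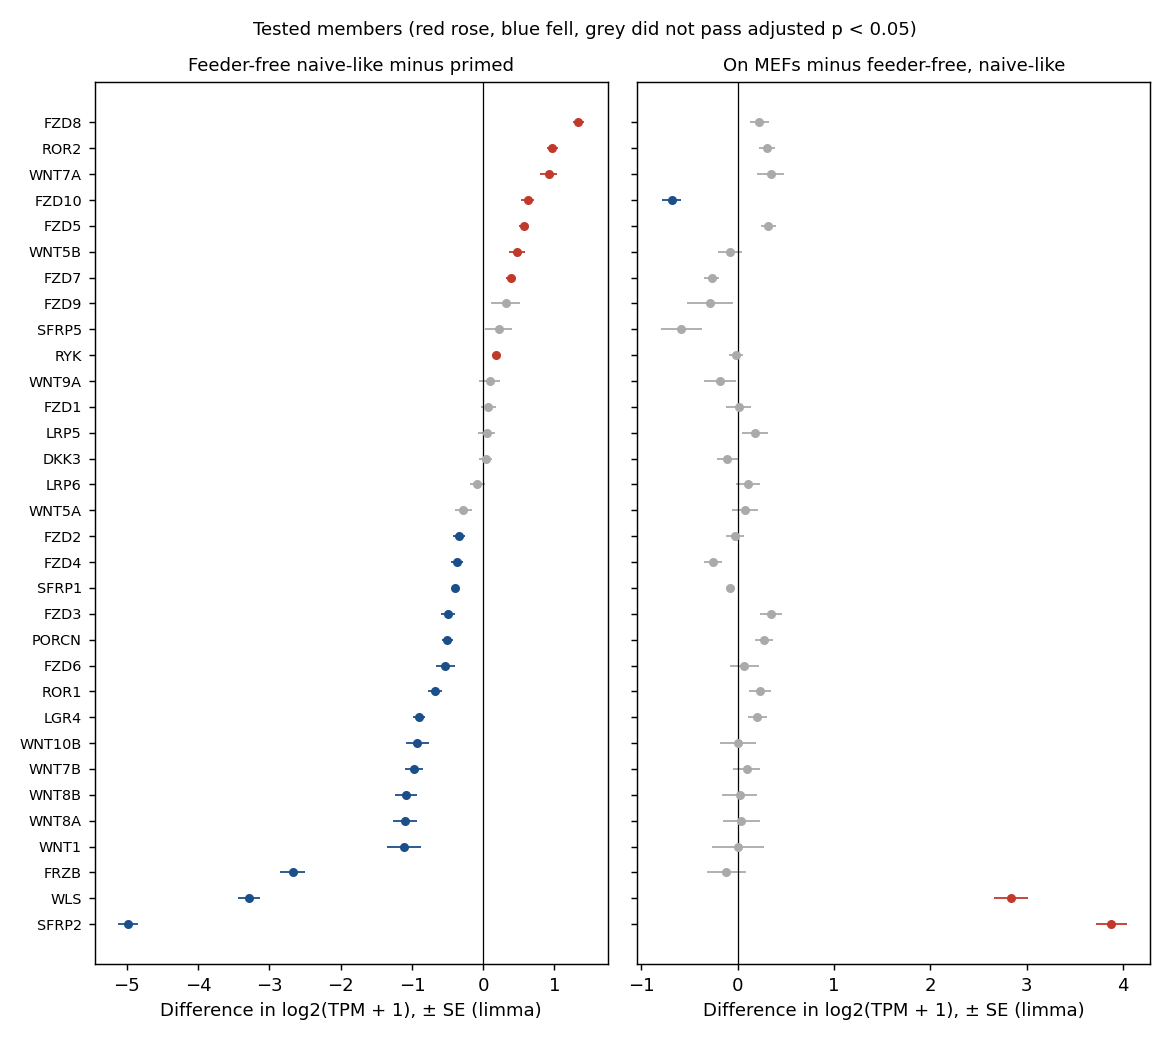
Difference in log2(TPM + 1) with its limma standard error for the 32 tested members, feeder-free naive-like minus primed on the left and on MEFs minus feeder-free (naive-like) on the right, in the order of the left panel. Red marks rose, blue marks fell and grey marks did not pass. SFRP2 (−4.98 ± 0.142) and WLS (−3.28 ± 0.152) lie lowest on the left and highest on the right (3.88 ± 0.163 and 2.84 ± 0.176), while FRZB (−2.67 ± 0.172) is low on the left and near 0 on the right.

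Among the ligands, 5 of the 9 tested fell in naive-like cells (WNT1, WNT7B, WNT8A, WNT8B and WNT10B), 2 rose (WNT5B and WNT7A) and 2 did not pass (WNT5A and WNT9A), in state and in the feeder-free comparison alike. Of all tested genes 22.1% fell and 28.6% rose for state, and 25.6% fell and 30.8% rose in the feeder-free comparison. The 5 that fell reached 1 TPM in 2 or more primed libraries and in 0 naive-like ones, and WNT7A reached it in naive-like libraries alone. These 6 entered the tests only through the state where they were high, so nothing is read from the count, and their p-values are given as a description. WNT5B and WNT5A, ligands best known for signalling without beta-catenin, were the most abundant. WNT5B was at 5.02 and 4.41 TPM in line A, 4.86 and 4.57 TPM in line B, 6.75 and 7.12 TPM without feeders, and 5.86 and 7.25 TPM on MEFs. Each naive-like library was above all primed ones, a rise of 0.44 ± 0.0912 (log2, SE; adjusted p = 0.00338). With the libraries of each group averaged the adjusted p was 0.0606. WNT5A was at 4.18 and 4.70 TPM in line A, 4.61 and 5.15 TPM in line B, 4.07 and 3.29 TPM without feeders, and 4.07 and 3.77 TPM on MEFs, each naive-like library lying below all primed ones, but the difference of −0.24 ± 0.0983 did not pass (adjusted p = 0.0702). It passed with median-ratio scaling (adjusted p = 0.0290) and without a variance trend (adjusted p = 0.0392). The ratio of WNT5B to WNT5A within a library was 0.887 to 1.20 in primed and 1.44 to 2.16 in naive-like cells, with no overlap; this and the other pairs below were picked after their values were seen and carry no test.

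The related ligands WNT7A and WNT7B, which can act through beta-catenin, differed between the states in opposite directions, each of them having passed the filter through 1 state alone. WNT7A was at 0.663 and 0.567 TPM in line A, 0.632 and 0.743 TPM in line B, 1.93 and 2.32 TPM without feeders, and 2.96 and 2.96 TPM on MEFs, a rise of 1.09 ± 0.129 (adjusted p = 0.000126). WNT7B was at 0.733 and 0.837 TPM in line A, 1.48 and 1.43 TPM in line B, 0.0634 and 0.0707 TPM without feeders, and 0.157 and 0.121 TPM on MEFs, a fall of 0.92 ± 0.152 (adjusted p = 0.000893). In both genes the 4 libraries of a state did not overlap with those of the other. As a share of the summed ligand TPM, WNT7A went from 3.04 to 3.91% in primed to 12.2 to 18.7% in naive-like libraries, and WNT7B from 4.32 to 7.44% to 0.400 to 0.990%.

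The other 4 ligands that fell were WNT1, WNT8A, WNT8B and WNT10B. WNT8A, a ligand active in the gastrulating mouse embryo, was at 1.49 and 2.26 TPM in line A, 1.14 and 1.49 TPM in line B, 0.246 and 0.149 TPM without feeders, and 0.111 and 0.364 TPM on MEFs (−1.08 ± 0.153, adjusted p = 0.000362). WNT8B, a ligand of the developing forebrain, was at 0.7998 and 0.718 TPM in line A, 1.35 and 2.13 TPM in line B, 0 and 0.0566 TPM without feeders, and 0 and 0.0883 TPM on MEFs (−1.08 ± 0.194, adjusted p = 0.00151). WNT1, a midbrain and neural crest signal, was at 0.528 and 1.71 TPM in line A and 1.61 and 1.00 TPM in line B, and was listed at 0 in all 4 naive-like libraries (−1.11 ± 0.188, adjusted p = 0.00105). WNT10B was at 1.18 and 0.578 TPM in line A, 0.937 and 1.07 TPM in line B, 0.0327 and 0 TPM without feeders, and 0.0340 and 0 TPM on MEFs (−0.92 ± 0.135, adjusted p = 0.000448). All 4 genes reached at most 2.26 TPM and passed the filter through primed libraries alone, so the calls rest on a low signal. WNT1 and WNT8B are textbook neural genes, and the 6 neuroectoderm markers examined all fell for state, their summed TPM being 126 to 148 in primed, 18.2 to 26.2 in feeder-free and 45.6 to 48.0 in MEF libraries. Of these markers, 4 averaged under 1 TPM in each naive-like group, and their part in the ligand values was not tested. Other marker lists moved with state as well. The summed TPM of 6 mesoderm and primitive streak markers was 2.59 to 4.18 in primed and 85.2 to 105 in naive-like libraries; the 2 tested, EOMES and GSC, rose, and 3 of the 6 were under 1 TPM in all libraries. For 6 hypoblast and endoderm markers the sum was 379 to 471 in primed and 70.6 to 91.5 TPM in naive-like libraries, with both tested genes falling and 4 under 1 TPM in all. Of the 6, 5 averaged under 1 TPM in line A and in each naive-like group, and 4 in line B, so the sum rests on few genes. The 5 trophectoderm markers in the table summed to 14.1 to 19.5 and 2.93 to 5.30 TPM, with both tested genes falling and 1 under 1 TPM in all. The part of these cell types in the values of the members was not tested. WNT9A did not pass, at 0.693 to 1.07 TPM in primed and 0.702 to 1.21 TPM in naive-like libraries (0.00 ± 0.127, adjusted p = 0.997).

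**Figure D3:**
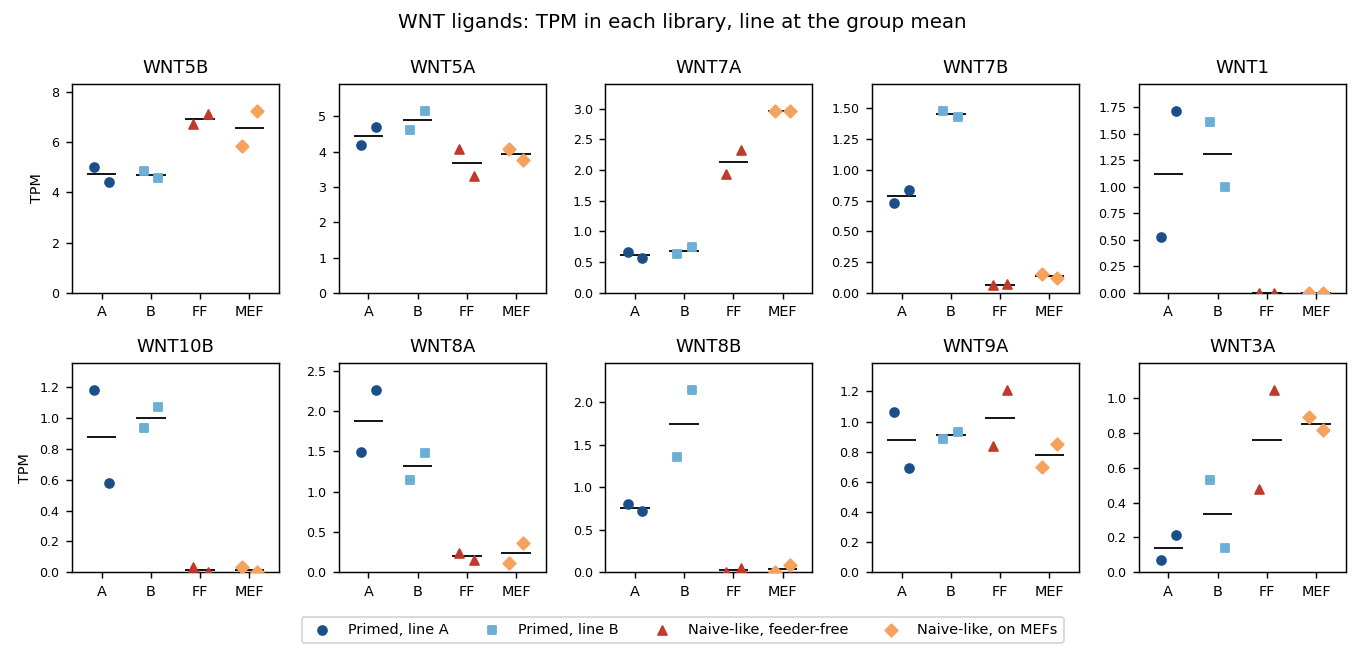
TPM of 10 WNT ligands in each library, with 2 marks per group and a line at the group mean; A and B are the primed lines, FF is feeder-free and MEF is on MEFs, both naive-like. Vertical axes start at 0 and differ between panels. WNT5B and WNT7A are higher in both naive-like groups, while WNT1, WNT7B, WNT8A, WNT8B and WNT10B are close to 0 there.

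The 10 ligands that were not tested reached at most 1.34 TPM, in a single library. WNT16 (0.374 to 0.624 TPM primed, 0.531 to 1.34 TPM naive-like) and WNT3A (0.0685 to 0.530 and 0.475 to 1.04 TPM) were the highest of them. WNT3, which with WNT3A is a beta-catenin ligand of the gastrulating mouse embryo, was at 0.229 to 0.608 TPM in primed and 0 to 0.144 TPM in naive-like libraries, and WNT6 at 0.166 to 0.928 and 0.0900 to 0.511 TPM. WNT2, WNT2B, WNT4, WNT9B, WNT10A and WNT11 did not exceed 0.222 TPM anywhere. In the RefSeq sheep annotation, used here for gene order only, 4 pairs of the members are next to each other among protein-coding genes: WNT1 with WNT10B, WNT3 with WNT9B, WNT3A with WNT9A and WNT6 with WNT10A. WNT1 and WNT10B were both near 1 TPM in primed cells and at or near 0 in naive-like cells; in the other pairs WNT9B and WNT10A stayed at or below 0.0391 TPM.

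The secretion factors were both lower in feeder-free naive-like cells. WLS, the carrier of WNT proteins, was at 11.3 and 11.7 TPM in line A, 19.7 and 22.1 TPM in line B, 0.395 and 1.07 TPM without feeders, and 11.05 and 11.2 TPM on MEFs. Feeder-free libraries were far below all others, 22.1-fold below the primed mean in TPM, a fall of 3.28 ± 0.152 (adjusted p = 1.29e-06), whereas the MEF libraries lay just below line A. With both naive-like groups together WLS did not pass (−1.86 ± 0.699, adjusted p = 0.0501), although the states did not overlap; without MEF replicate 1 or 2 the adjusted p was 0.0205 or 0.0194. PORCN, the enzyme that acylates WNT proteins, was at 23.6 and 20.5 TPM in line A, 24.9 and 25.3 TPM in line B, 17.2 and 15.5 TPM without feeders, and 19.1 and 20.9 TPM on MEFs, a fall of 0.50 ± 0.0836 in feeder-free cells (adjusted p = 0.00134) and of 0.36 ± 0.103 for state (adjusted p = 0.0157). MEF replicate 2 overlapped with line A there, and the state call of PORCN was lost with the libraries of each group averaged (adjusted p = 0.115).

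All 10 Frizzleds were above 1 TPM in every library. For state 3 fell, 2 rose and 5 did not pass, and the feeder-free comparison gave 4 falls and 4 rises; of all genes 50.7% and 56.4% passed in these comparisons. FZD7, FZD2 and FZD5 together carried most of the Frizzled signal. FZD2 was the Frizzled that fell among these, at 112 and 105 TPM in line A, 112 and 93.3 TPM in line B, 78.5 and 87.8 TPM without feeders, and 79.9 and 83.1 TPM on MEFs (−0.35 ± 0.0689, adjusted p = 0.00241). FZD5, at 67.2 and 66.3 TPM in line A, 69.8 and 67.2 TPM in line B, 109 and 93.4 TPM without feeders, and 131 and 122 TPM on MEFs, rose (0.73 ± 0.0939, adjusted p = 0.000204). FZD5 was 1.68-fold higher in mean TPM in naive-like cells, and no library overlapped between the states for either gene. The ratio of FZD5 to FZD2 was 0.602 to 0.720 in primed and 1.06 to 1.63 in naive-like libraries, so the order of the pair was the opposite in the 2 states. As shares of the summed Frizzled TPM, FZD2 held 26.1 to 31.3% and then 18.2 to 21.5%, and FZD5 17.4 to 19.3% and then 22.9 to 30.6%.

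FZD7, which carries WNT signals in human pluripotent cells, was at 104 and 101 TPM in line A, 128 and 113 TPM in line B, 154 and 138 TPM without feeders, and 122 and 119 TPM on MEFs. It did not pass for state (0.25 ± 0.0987, adjusted p = 0.0565), with the MEF libraries within the range of line B, and rose in feeder-free cells (0.39 ± 0.0666, adjusted p = 0.00155). For state the call was gained without line B replicate 1 (adjusted p = 0.0219) or MEF replicate 2 (adjusted p = 0.0389). FZD2 and FZD7 overlapped in level in primed libraries, while FZD7 was above FZD2 in all 4 naive-like libraries, with ratios of 1.43 to 1.96.

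FZD8 gave the largest rise among the Frizzleds in both comparisons with primed cells. It was at 10.9 and 9.64 TPM in line A, 12.7 and 12.8 TPM in line B, 28.3 and 32.6 TPM without feeders, and 36.1 and 35.4 TPM on MEFs, which is 2.88-fold higher in mean TPM in naive-like cells, a rise of 1.45 ± 0.109 (adjusted p = 7.41e-06) with no overlap between states. FZD5 and FZD8 are close relatives within the family. FZD4, known also as the receptor of norrin, went the other way, at 12.3 and 12.8 TPM in line A, 18.2 and 18.4 TPM in line B, 12.1 and 11.01 TPM without feeders, and 10.1 and 8.90 TPM on MEFs (−0.49 ± 0.1497, adjusted p = 0.0211). The state call was lost without line B replicate 1 or 2 or MEF replicate 2 (adjusted p = 0.0554 to 0.0560) and without both MEF libraries (adjusted p = 0.145). It was also lost with group libraries averaged (adjusted p = 0.137) and without the filter on low genes (adjusted p = 0.0706). Feeder-free cells against line A alone gave −0.11 (adjusted p = 0.367). The FZD8 to FZD4 ratio was 0.695 to 0.887 in primed and 2.35 to 3.98 in naive-like libraries.

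FZD6, which takes part in planar polarity, was at 9.39 and 8.90 TPM in line A, 9.13 and 8.16 TPM in line B, 6.97 and 4.85 TPM without feeders, and 6.02 and 6.34 TPM on MEFs, lower in all naive-like libraries than in primed ones (−0.50 ± 0.107, adjusted p = 0.00387). For feeder-free cells FZD6 fell by 0.53 ± 0.132, which did not pass without feeder-free replicate 2 (−0.31). FZD2 fell by 0.34 ± 0.0818 there, which did not pass without feeder-free replicate 1 (−0.26). Without the filter on low genes neither passed (adjusted p = 0.0526 for FZD6 and 0.0592 for FZD2). FZD3, a receptor of axon guidance, was at 24.5 and 24.6 TPM in line A, 32.1 and 27.1 TPM in line B, 20.8 and 17.2 TPM without feeders, and 24.9 and 23.6 TPM on MEFs; it fell in feeder-free cells (−0.49 ± 0.0971, adjusted p = 0.00323) and did not pass for state (−0.32 ± 0.127, adjusted p = 0.0626). For state FZD3 passed without MEF replicate 1 (adjusted p = 0.0385). FZD10 was at 6.07 and 5.95 TPM in line A, 7.65 and 7.46 TPM in line B, 10.3 and 11.6 TPM without feeders, and 6.51 and 6.33 TPM on MEFs, higher in feeder-free naive-like libraries than in all others (0.62 ± 0.0879 against primed, adjusted p = 0.000548). FZD1 was at 7.41 and 6.73 TPM in line A, 7.89 and 7.28 TPM in line B, 8.75 and 6.86 TPM without feeders, and 7.73 and 7.92 TPM on MEFs. FZD1 and FZD9 (2.78 to 4.29 TPM in primed and 2.90 to 5.54 TPM in naive-like libraries) overlapped between the states and did not pass in any of the 4 comparisons.

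**Figure D4:**
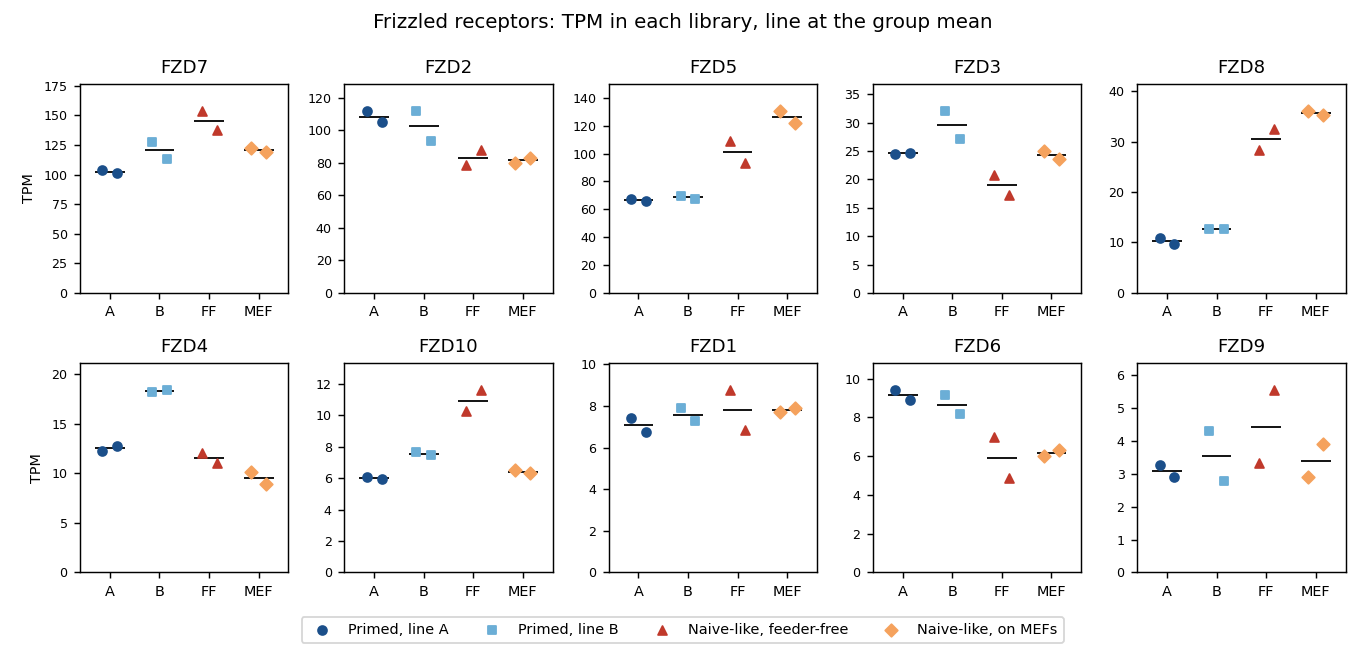
TPM of the 10 Frizzled receptors in each library, with 2 marks per group and a line at the group mean, ordered by mean level; A and B are primed lines, FF is feeder-free and MEF is on MEFs, both naive-like. Vertical axes start at 0 and differ between panels. FZD5 and FZD8 are higher in all naive-like libraries, FZD2, FZD4 and FZD6 are lower, and FZD10 stands highest in the feeder-free pair.

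The receptor tyrosine kinases ROR1 and ROR2, which bind WNT5A, moved in opposite directions. ROR1 was at 17.1 and 16.7 TPM in line A, 19.9 and 19.5 TPM in line B, 12.5 and 9.82 TPM without feeders, and 13.0 and 13.5 TPM on MEFs, a fall of 0.55 ± 0.108 (adjusted p = 0.00232). ROR2 was at 12.8 and 12.5 TPM in line A, 13.3 and 14.9 TPM in line B, 27.0 and 27.2 TPM without feeders, and 32.4 and 35.4 TPM on MEFs, a rise of 1.13 ± 0.1005 (adjusted p = 2.18e-05). Neither gene overlapped between the states. ROR2 was at 0.668 to 0.762 times the level of ROR1 in primed libraries and at 2.16 to 2.77 times in naive-like ones. RYK, a receptor with a WNT-binding domain and an inactive kinase, was at 49.0 and 46.7 TPM in line A, 55.0 and 60.4 TPM in line B, 57.6 and 62.1 TPM without feeders, and 60.4 and 57.6 TPM on MEFs and did not pass for state (0.17 ± 0.0813, adjusted p = 0.102), though it did without line B replicate 2 (adjusted p = 0.0225). Its rise in feeder-free cells was small (0.18 ± 0.0630, adjusted p = 0.0365) and was lost on leaving out line A replicate 2, line B replicate 1, feeder-free replicate 2, MEF replicate 1 or MEF replicate 2 (adjusted p = 0.0569 to 0.200). Against line B alone the difference was 0.05 (adjusted p = 0.577). The feeder-free call of RYK was also lost without the filter on low genes (adjusted p = 0.0803) and with median-ratio scaling (0.128). The same held without a variance trend (0.0696) and with the libraries compared alone (0.0564).

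The co-receptor LRP6 was at 26.9 and 25.3 TPM in line A, 28.8 and 25.2 TPM in line B, 28.5 and 21.9 TPM without feeders, and 27.8 and 26.3 TPM on MEFs. LRP5 was lower, at 9.97 and 8.65 TPM in line A, 8.64 and 6.54 TPM in line B, 8.75 and 8.65 TPM without feeders, and 9.78 and 10.2 TPM on MEFs. Both genes overlapped between the states. They did not pass in any of the 4 comparisons, with state differences of −0.03 ± 0.0893 for LRP6 and 0.14 ± 0.120 for LRP5. LGR4, the R-spondin receptor that held 96.6 to 98.2% of the summed LGR signal, was at 42.3 and 38.4 TPM in line A, 55.9 and 54.5 TPM in line B, 26.8 and 23.0 TPM without feeders, and 30.3 and 27.4 TPM on MEFs. It fell by 0.80 ± 0.132 for state (adjusted p = 0.000940) and by 0.90 ± 0.0819 in feeder-free cells (adjusted p = 5.00e-05), with every naive-like library below all primed ones. LGR5, an adult stem cell marker and itself a WNT target in mouse intestine, was not tested; it was at 0.353 to 0.657 TPM in primed, 0.0219 and 0.284 TPM in feeder-free libraries and listed at 0 in both MEF libraries. LGR6 was at 0.428 to 0.687 TPM throughout.

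Among the secreted antagonists of the SFRP family, SFRP2 and FRZB had the lowest state differences of the tested members on the log2(TPM + 1) scale; in mean TPM several low ligands, WNT10B (56.4-fold) among them, fell by larger folds than SFRP2 (4.17-fold). SFRP2 was at 211 and 194 TPM in line A, 329 and 313 TPM in line B, 8.96 and 5.56 TPM without feeders, and 116 and 119.9 TPM on MEFs. The feeder-free libraries were 36.0-fold below the primed mean, and the MEF libraries lay between them and line A, with no overlap between any of the 4 groups. The fall was 4.98 ± 0.142 in feeder-free cells (adjusted p = 1.30e-07) and 3.04 ± 0.926 for state (adjusted p = 0.0215). The state call did not pass without feeder-free replicate 1 (−2.50, adjusted p = 0.0568), with the libraries of each group averaged (adjusted p = 0.128) or without the filter on low genes (adjusted p = 0.0919). SFRP1 was at 347 and 346 TPM in line A, 452 and 442 TPM in line B, 304 and 292 TPM without feeders, and 284 and 279.8 TPM on MEFs, a smaller fall of 0.44 ± 0.0942 (adjusted p = 0.00382) with no overlap between states. With the group libraries averaged, its adjusted p was 0.0674. The ratio of SFRP1 to SFRP2 was 1.37 to 1.79 in primed libraries, 33.9 and 52.5 in feeder-free and 2.44 and 2.33 in MEF libraries.

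FRZB, the antagonist also called SFRP3, was at 5.29 and 4.69 TPM in line A, 6.77 and 10.1 TPM in line B, 0.260 and 0.0851 TPM without feeders, and 0.166 TPM and 0 (as listed) on MEFs. It fell by 2.73 ± 0.203 for state (adjusted p = 6.98e-06), having entered the tests through primed libraries alone. On MEFs against feeder-free the FRZB difference was −0.11 ± 0.198 (adjusted p = 0.787). SFRP5 was at 1.07 to 1.44 TPM in primed and 0.471 to 2.01 TPM in naive-like libraries and did not pass for state (−0.07 ± 0.201, adjusted p = 0.782). SFRP4 and WIF1 stayed at or below 0.489 TPM. Summed over the 6 genes of this class, the level was 546 to 789 TPM in primed and 299 to 402 TPM in naive-like libraries.

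DKK3, the divergent Dickkopf that is not an established inhibitor of LRP5 or LRP6, was the one Dickkopf above the filter, at 20.5 and 18.2 TPM in line A, 20.0 and 18.6 TPM in line B, 18.6 and 21.1 TPM without feeders, and 19.7 and 17.0 TPM on MEFs, with all groups overlapping (−0.02 ± 0.0795 for state, adjusted p = 0.870). DKK1, an LRP antagonist and a WNT target, was too low to test, at 0.284 and 0.149 TPM in line A, 0.348 and 0.192 TPM in line B, 0 and 0.0357 TPM without feeders, and 0.106 and 0 TPM on MEFs. DKK2 and DKK4 stayed at or below 0.454 TPM.

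**Figure D5:**
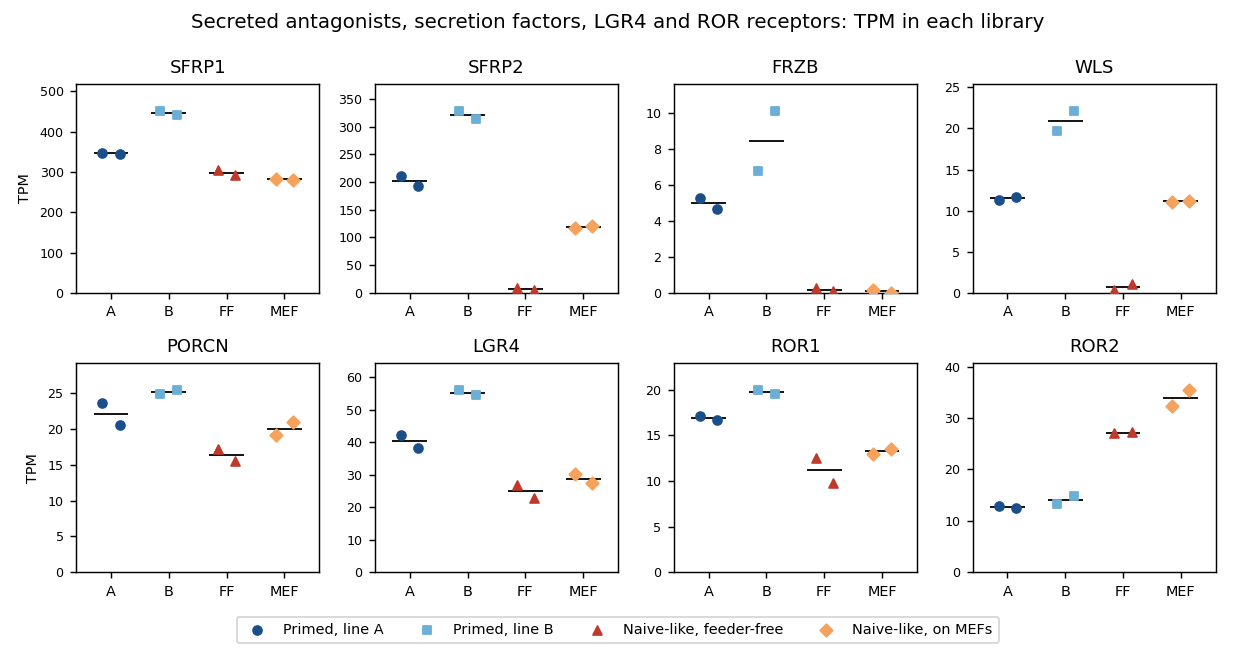
TPM of SFRP1, SFRP2, FRZB, WLS, PORCN, LGR4, ROR1 and ROR2 in each library; 2 marks per group and a line at the group mean, with A and B the primed lines, FF feeder-free and MEF on MEFs. Vertical axes start at 0 and differ between panels. SFRP2 and WLS are near 0 in the feeder-free pair only, FRZB is near 0 in all 4 naive-like libraries, and ROR1 and ROR2 go opposite ways.

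Naive-like cells on MEFs were set against feeder-free naive-like cells in the same medium. Of the 32 tested members 2 rose on MEFs (SFRP2 and WLS), 1 fell (FZD10) and 29 did not pass, against 2.89% and 2.27% of all tested genes rising and falling and 5.16% passing. SFRP2 rose by 3.88 ± 0.163 (adjusted p = 1.66e-05), 16.3-fold in mean TPM, and WLS by 2.84 ± 0.176 (adjusted p = 0.000134), 15.2-fold; both calls held with each library left out in turn. FZD10 fell by 0.68 ± 0.101 (adjusted p = 0.00947), but not without feeder-free replicate 2 (−0.60) or MEF replicate 1 (−0.70) or 2 (−0.67), with adjusted p of 0.0552 to 0.0851. FZD5 was higher on MEFs (0.32 ± 0.0793, adjusted p = 0.0622) and did not pass, but did without feeder-free replicate 1 (0.43, adjusted p = 0.0278), with median-ratio scaling (adjusted p = 0.0364) and with the replicate number as a block (adjusted p = 0.0450). FZD7 was lower (−0.27 ± 0.0769, adjusted p = 0.0959) and passed with median-ratio scaling (adjusted p = 0.0292).

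Fibroblast genes were also higher in the MEF libraries. The summed TPM of 20 fibroblast markers was 460.3 to 467 in MEF libraries, 213 to 246 in feeder-free, 324 to 374 in line A and 276 to 303 in line B. Of the 15 tested, 7 rose, 2 fell and 6 did not pass on MEFs, beside 2.89% of all tested genes that rose and 2.27% that fell, and 5 of the 20 were under 1 TPM in all libraries. COL1A2 went from 0.0468 and 0.219 TPM without feeders to 39.0 and 37.0 TPM on MEFs, COL3A1 from 0.123 and 0.0818 to 17.5 and 19.8 TPM, and the mesenchymal factor PRRX1 from 0 and 0.0267 to 6.84 and 8.54 TPM. PRRX1 reached 1 TPM in the MEF libraries alone and entered the tests through them, so nothing is read from its part in the count. FAP was listed at 0 in 7 of 8 libraries, S100A4 and POSTN stayed under 1 TPM, and LUM fell on MEFs. In primed libraries, which had no feeders, PRRX1 was at 0 to 0.255 TPM, COL1A2 at 1.73 to 3.48 TPM and COL3A1 at 1.66 to 3.12 TPM. The latter 2 were above their feeder-free naive-like values. SFRP2 and WLS were higher in primed libraries than on MEFs. MEFs are mouse cells and the values are assigned to sheep gene names. The part of feeder RNA in the SFRP2 and WLS values on MEFs was not tested.

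R-spondins, secreted proteins that act through LGR receptors and were not among the 49 genes, are given because RSPO2 and RSPO3 were lowest in feeder-free naive-like cells, a choice made once the values were known. RSPO3 was at 2.53 and 2.81 TPM in line A, 3.64 and 4.39 TPM in line B, 0.0369 TPM and 0 (as listed) without feeders, and 1.57 and 1.62 TPM on MEFs, and RSPO2 at 0.222 and 0.345 TPM in line A, 0.870 and 0.667 TPM in line B, 0.0309 and 0.0743 TPM without feeders, and 2.76 and 2.70 TPM on MEFs. On MEFs RSPO3 rose by 1.35 ± 0.140 (adjusted p = 0.00202) and RSPO2 by 1.83 ± 0.148 (adjusted p = 0.000490). RSPO2 reached 1 TPM in the MEF libraries alone and entered the tests through them, so nothing is read from its call. RSPO2 was above its primed range there, and RSPO3 below it. RSPO1 was at 1.90 to 2.44 TPM in primed and 1.44 to 2.67 TPM in naive-like libraries and did not pass in any comparison.

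Between the primed lines, 4 of the 32 members were higher in line B, 0 were lower and 28 did not pass, against 4.18% of all tested genes rising, 3.17% falling and 7.36% passing. Of the 1087 genes that passed, 56.9% were higher in line B, against 40.0% of 1012 with median-ratio scaling. With limma, 12 of the 32 had an unadjusted p under 0.05, as did 3589 of the 14779 tested genes. SFRP1 (0.36 ± 0.0440, adjusted p = 0.00275), FZD4 (0.51 ± 0.0960, adjusted p = 0.0194), LGR4 (0.44 ± 0.0946, adjusted p = 0.0296) and WLS (0.81 ± 0.176, adjusted p = 0.0323) rose. All 4 were lower in naive-like cells than in line B, but they were picked for being high in line B, so nothing is read from this. Leaving out any of the 4 primed libraries left SFRP1 alone, while FZD4, LGR4 and WLS had adjusted p of 0.0773 to 0.154; without MEF replicate 1 or 2, WLS did not pass either (adjusted p = 0.0598 and 0.0600). SFRP2 was also higher in line B (0.66 ± 0.163, adjusted p = 0.0505) and passed without feeder-free replicate 1 or 2 (adjusted p = 0.00176 and 0.00182), with the 4 primed libraries fitted alone (adjusted p = 0.00339) and with the replicate number as a block (adjusted p = 0.0455).

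Other genes of the pathway, taken from 4 lists, are given by count. For state, their counts stand beside 22.1% of all tested genes that fell and 28.6% that rose. Of 12 tested targets and feedback genes, 7 fell and 1 rose for state, with a median difference of −0.38. SP5, a transcription factor induced by WNT signalling, fell from 10.6 ± 1.75 to 1.59 ± 0.945 TPM (SD, n = 4 each), AXIN2, a feedback scaffold, from 5.56 ± 0.290 to 1.88 ± 0.704 TPM, BAMBI, a pseudoreceptor of the TGF-beta family, from 15.4 ± 2.64 to 4.43 ± 1.48 TPM, and SP8, a relative of SP5, from 35.6 ± 4.42 to 0.327 ± 0.0885 TPM. The riser was TCF7, a transcription factor of the pathway, from 6.48 ± 0.985 to 11.02 ± 1.39 TPM; it and TLE4 below were named after their values were seen. Of 18 tested secreted or membrane modulators outside the 49 genes, 5 rose and 5 fell (median −0.01). The glypican GPC3 fell by 1.74 ± 0.103, the secreted binding protein IGFBP4 by 1.98 ± 0.145 and ADGRA2, a co-receptor for WNT7 ligands, by 1.64 ± 0.134, while PTK7, a polarity co-receptor, rose by 0.87 ± 0.0738. Of 29 intracellular core genes, 11 rose and 4 fell (median −0.01), among them the beta-catenin partners TCF7L2 (1.20 ± 0.0598) and TCF7L1 (1.18 ± 0.0598), the co-repressor TLE3 (0.81 ± 0.0622) and the kinase CSNK1E (0.46 ± 0.0600). TLE4, a co-repressor of the same family as TLE3, fell (−0.76 ± 0.111, adjusted p = 0.000432). Of 21 planar polarity and noncanonical genes, 5 rose and 6 fell (median −0.05), among them PRICKLE2 (0.85 ± 0.108), ANKRD6 (0.82 ± 0.136), NFATC1 (−0.99 ± 0.127) and CELSR2 (−0.58 ± 0.104). The median over all tested genes was 0.05. In the feeder-free comparison the 4 lists gave, in the same order, 1, 6, 9 and 6 rises and 7, 8, 7 and 7 falls, beside 30.8% of all tested genes that rose and 25.6% that fell. SP8, LEF1, ADGRA2 and NFATC1 reached 1 TPM in 0 naive-like libraries, and PRICKLE2 in 1 primed library. They entered the tests through 1 state alone, so nothing is read from the counts or medians of their lists in either comparison.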

How the data were processed

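RNA-seq was done on 8 libraries, of about 20 M paired-end reads each per the labels' protocols. The authors deposited 1 table of TPM for 28475 genes, and the submitters' processing notes name Salmon as a tool; version, genome build and annotation are not given in the sources used here. All 8 columns added up to 1000000 TPM, and TPM hold no read counts, so no count model, interval or detection limit was used. All 49 members, and 28429 of the table's symbols, matched the RefSeq sheep annotation, which served for gene order only. No sequences are shown.

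TPM were transformed as log2(TPM + 1), and genes at 1 TPM or more in at least 2 libraries entered linear models (limma 3.58.1, R 4.3.3; trended moderated variances, two-sided, Benjamini-Hochberg over all 14779 genes, threshold 0.05). State used a fit of 2 groups of 4 libraries, and a fit of all 4 groups gave the rest. Errors are SE of log2 differences or SD between libraries. The procedure was tested on simulated data with 200 changed genes and noise drawn independently for each library. For state no difference between lines or feeders was added, so the simulation cannot check how that fit handles them. Members at a group mean of 5 TPM or more, or passing in a comparison, were described by library, with up to 4 genes of each other pathway list. The members, lists and tests were chosen with earlier results of these data known. Alternatives were other pseudocounts (0.1 and 5), filters, scalings, fits and leaving out each library. Python 3.11.15 and pandas 2.3.3 were used for summaries.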

Additional observations from a re-analysis of the deposited data

How the results depend on the processing

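Members that passed were counted again under each alternative, and no member that passed reversed its direction in any of them. For state, 19 members passed as reported, and 16 to 21 passed with each library left out, 14 with the libraries of each group averaged, 24 in the fit of 4 groups, and 22 without the MEF libraries, an alternative chosen after seeing the data. For feeder-free against primed cells, 24 passed as reported and 21 to 24 with each library left out. For MEFs against feeder-free, 3 passed as reported, 5 with median-ratio scaling, and 2 to 4 with each library left out. Between the lines, 4 passed as reported, 2 without a filter, and 1 to 5 with each library left out. Without a filter, 1 of the 4 between the lines was kept, FZD4, LGR4 and WLS did not pass, and WNT7B passed (adjusted p = 0.0113). With a library left out, where a group kept 1 library, that library was assumed to vary like the other groups.

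Same-numbered replicates did not deviate together (correlations of −0.0748 to 0.0973 between groups), so the number gave no pairing. With the replicate number as a block, 19 members passed for state, 24 for feeder-free against primed, 4 for MEFs and 5 between the lines.

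Over all genes, 7493 passed for state against 4023 with group means, 762 for MEFs against 345 with no filter, 479 with the libraries compared alone and 160 to 644 with each library left out, and 1087 between lines against 624 with no filter and 363 to 1223 with each library left out. With the group as a random block (correlation within a group 0.417), 5848 genes and 19 members passed for state. With median-ratio scaling 40.0% rather than 56.9% of the calls between lines were higher in line B. The causes of these changes were not tested. Depth, unknown for TPM, limits what can be said of members under 1 TPM.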
